A study of Mus musculus with 4 samples.

Results

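The epithelial and mesenchymal identity genes of MC38 cells, a mouse colon adenocarcinoma line, were examined as a set of 46 genes, of which 30 mark epithelial and 16 mesenchymal cells. Members were matched by gene symbol in the platform annotation, which found 45 of them among 19505 named genes, each with 1 probe set. Zeb2 was matched to no probe set and was not analysed here. RNA was measured once each in 4 lines on the Clariom S mouse array, which gives a log2 signal per probe set. WT is the control line, MOCK carries an empty vector, and KO T5 clone 1 and clone 2 are CRISPR-Cas9 knockouts of Mgat5, a Golgi glycosyltransferase that builds a branch of N-glycans. WT and MOCK form the control group and both clones the knockout group, with n = 2 arrays in each. The titles call each knockout a clone and neither control one, so selection of a clone and loss of Mgat5 cannot be told apart. A cell label on every sample names the knockout, and the titles were followed instead.

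Epithelial cells are held together by E-cadherin junctions, tight junctions sealed by claudins and occludin, and desmosomes anchored to keratin filaments. Mesenchymal cells instead carry vimentin filaments and N-cadherin and lay down matrix such as fibronectin. Transcription factors of the SNAIL, ZEB and TWIST families repress epithelial genes, in part through E-box sequences, while GRHL2, OVOL1 and the splicing factors ESRP1 and ESRP2 maintain the epithelial state. In the colon, CDX1 and CDX2 specify intestinal identity, and villin and keratin 20 mark differentiated epithelium.

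Expression was judged on each array against its 5222 negative control features, recognised by their identifiers. Their median was 5.22 for MOCK, 5.12 for WT, 5.16 for clone 1 and 5.20 for clone 2, and their 95th percentile, for the arrays in that order, was 8.98, 8.62, 8.81 and 8.87. A gene was counted as above the negative controls where its signal exceeded the 95th percentile of the same array. Mgat5 itself stood at 8.19 for MOCK, 8.27 for WT, 7.46 for clone 1 and 7.57 for clone 2, under that level on every array (limma adjusted p = 0.631). The arrays did not share 1 distribution, with a 99th percentile over all probe sets of 14.7 in WT against 15.8 to 15.9 in the others, so values after quantile normalization are given beside those deposited.

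Of the 30 epithelial genes, 1 was above the negative controls on all 4 arrays, and it was the same gene that was above on at least 1 array. Of the 15 measured mesenchymal genes, 8 were above on all 4 arrays and 9 on at least 1. Over all 22206 probe sets the shares were 24.6% and 31.9%. The epithelial gene was Tjp1, which encodes the junction scaffold ZO-1, a protein that many non-epithelial cells also make. The other 29 epithelial genes had signals between 2.53 and 6.29, and each lay below the 75th percentile of the negative controls on every array. Of these, 20 lay below even the median of the negative controls on all 4 arrays. E-cadherin, EpCAM, the keratins, CDX2 and villin, which define colon epithelium, were thus at background in WT, MOCK and both clones, although the cells are labelled as colon adenocarcinoma.

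**Figure D1:**
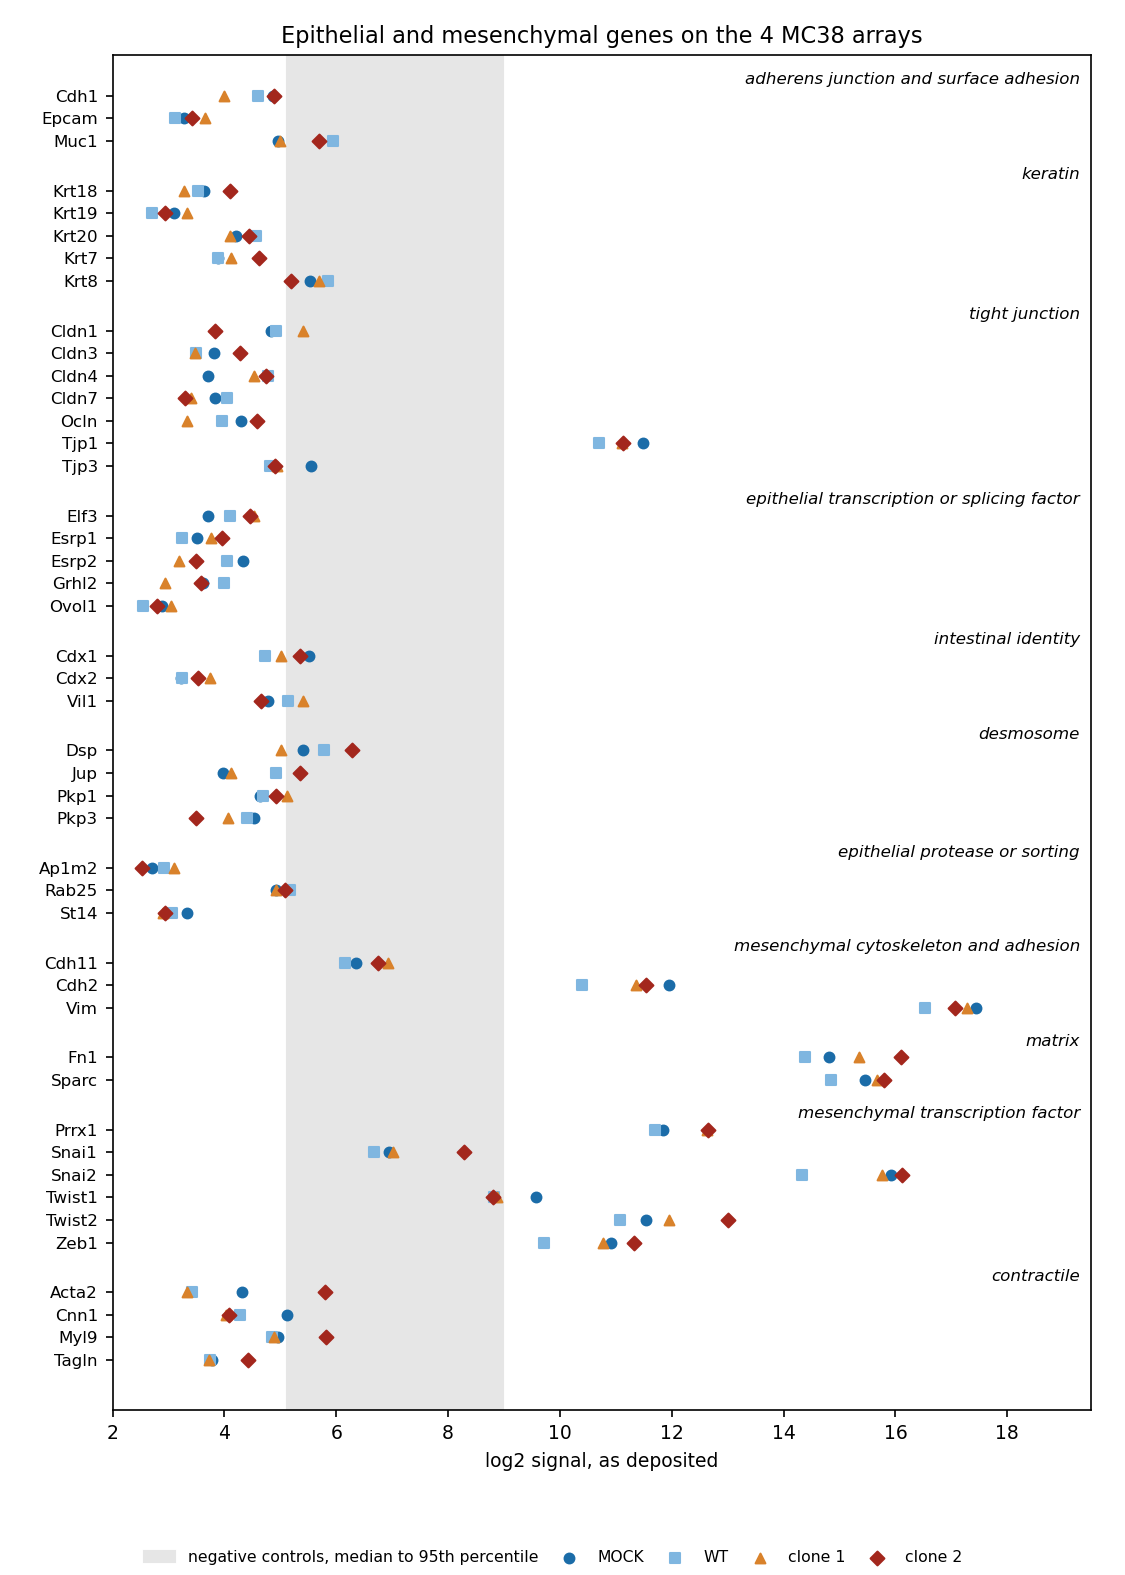
Log2 signal as deposited (horizontal axis) of the 45 measured genes, grouped by role, with 1 point per array. The grey band runs from the lowest median to the highest 95th percentile of the negative controls. Tjp1 is the single epithelial gene to the right of the band, while Vim, Snai2, Sparc and Fn1 lie between 14.32 and 17.43.

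**Figure D2:**
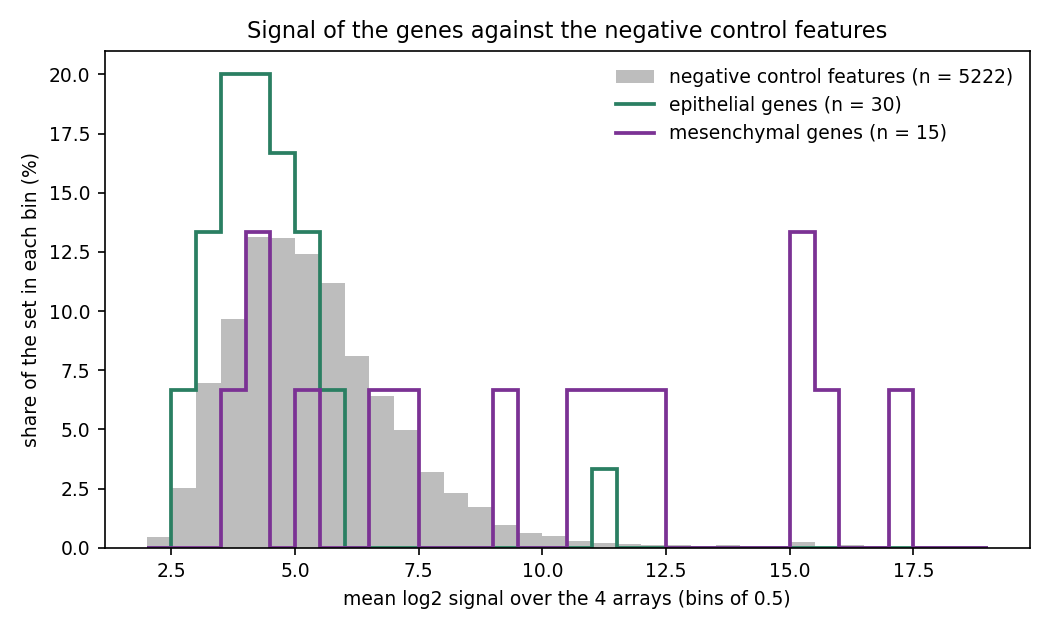
Share of each gene set in bins of mean log2 signal over the 4 arrays, for 5222 negative control features, 30 epithelial genes and 15 mesenchymal genes. Apart from Tjp1, the epithelial genes lie in the lower and middle part of the negative control range. The mesenchymal genes spread from the background to the brightest bins.

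Among the adhesion genes, Cdh1, which encodes E-cadherin, stood at 4.87 for MOCK, 4.59 for WT, 4.0007 for clone 1 and 4.89 for clone 2. Epcam, the epithelial cell adhesion molecule, stood at 3.29, 3.13, 3.65 and 3.42. Muc1, a transmembrane mucin of the apical surface, ran from 4.96 to 5.95. No array was set apart by any of these genes beyond the background range. The keratins gave the same picture. Krt8 had the highest signals of the 5, at 5.53 for MOCK, 5.86 for WT, 5.69 for clone 1 and 5.19 for clone 2, while its partner and chromosomal neighbour Krt18 stood at 3.64, 3.53, 3.28 and 4.10. Krt7, Krt19 and Krt20 ran from 2.71 to 4.62.

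Tight junction genes divided into Tjp1 and the rest. Tjp1 stood at 11.48 for MOCK, 10.71 for WT, 11.12 for clone 1 and 11.12 for clone 2, so both clones lay between the controls. Cldn1, Cldn3, Cldn4, Cldn7, Ocln and Tjp3, which encode sealing claudins, occludin and the scaffold ZO-3, ran from 3.29 to 5.54. Among the desmosome genes, Dsp, which encodes the plaque protein desmoplakin, stood at 5.40 for MOCK, 5.79 for WT, 5.01 for clone 1 and 6.29 for clone 2, the highest signal of any epithelial gene other than Tjp1. The plakophilins Pkp1 and Pkp3 and plakoglobin, encoded by Jup, ran from 3.50 to 5.36.

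The genes that specify epithelial identity were at background as well. The intestinal factors Cdx1 and Cdx2 and the microvillus protein gene Vil1 ran from 3.22 to 5.51. Esrp1, Esrp2, Grhl2, Ovol1 and the epithelial ETS factor Elf3 ran from 2.54 to 4.53. Esrp2 stood at 4.34 for MOCK, 4.05 for WT, 3.18 for clone 1 and 3.50 for clone 2, and although the groups did not overlap, every value was under the negative control median. The membrane protease gene St14, the recycling GTPase gene Rab25 and Ap1m2, which encodes the epithelial subunit of a sorting adaptor, ran from 2.53 to 5.17. At these levels the signals cannot show a difference between the lines in either direction.

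Promoter sequences are shown for 3 epithelial genes at background that hold the E-box bound by SNAIL and ZEB factors, and for Tjp1, which lacks it. Other epithelial genes at background lack it as well. The E-box searched was CACCTG on either strand, read as CACCTG or CAGGTG, in the 250 bases before each transcription start listed by RefSeq in build GRCm38.p6. Epcam (chr17:87635729-87635978, plus strand) held 2, beginning 187 and 19 bases before the start. Ap1m2 (chr9:21312334-21312583, minus strand) held 4, of which the nearest began 9 bases before the start, and Rab25 (chr3:88548280-88548529, minus strand) held 2, 64 and 53 bases before it. Tjp1 (chr7:65371245-65371494, minus strand) held 0. Capitals mark the E-boxes.
Epcam: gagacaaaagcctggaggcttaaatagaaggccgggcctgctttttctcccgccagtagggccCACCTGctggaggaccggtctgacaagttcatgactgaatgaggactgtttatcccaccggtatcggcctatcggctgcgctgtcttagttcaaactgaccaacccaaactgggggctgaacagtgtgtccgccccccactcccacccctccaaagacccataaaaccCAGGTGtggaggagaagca
Ap1m2: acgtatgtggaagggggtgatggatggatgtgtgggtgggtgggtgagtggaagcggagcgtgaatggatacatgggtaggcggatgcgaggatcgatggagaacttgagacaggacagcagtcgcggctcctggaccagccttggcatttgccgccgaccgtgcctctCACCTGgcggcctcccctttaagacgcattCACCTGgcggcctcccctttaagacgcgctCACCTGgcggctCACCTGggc
Rab25: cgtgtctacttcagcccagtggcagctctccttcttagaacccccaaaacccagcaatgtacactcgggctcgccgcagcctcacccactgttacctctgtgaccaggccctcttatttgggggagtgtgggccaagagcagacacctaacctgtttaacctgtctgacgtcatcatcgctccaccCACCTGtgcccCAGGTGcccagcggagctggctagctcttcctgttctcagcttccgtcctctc
Tjp1: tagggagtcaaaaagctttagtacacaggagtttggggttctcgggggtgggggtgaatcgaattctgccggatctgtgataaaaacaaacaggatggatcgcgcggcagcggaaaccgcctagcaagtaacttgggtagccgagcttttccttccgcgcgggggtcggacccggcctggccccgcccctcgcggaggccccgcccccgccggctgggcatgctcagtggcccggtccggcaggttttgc

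Promoter windows were found for 30 of the 46 genes, counting Zeb2, and an E-box stood in at least 1 window of 12 of 20 epithelial genes and of 1 of 10 mesenchymal genes. Over all 27025 genes with a window the share was 19.4%, with a mean GC content of 53.2% over windows, against 59.1% in the epithelial and 58.5% in the mesenchymal windows. The 12 epithelial genes were Ap1m2, Cldn4, Cldn7, Elf3, Epcam, Krt7, Krt8, Krt18, Muc1, Ocln, Rab25 and Tjp3, and the mesenchymal gene was Snai1. Cdx2, Cldn1, Cldn3, Dsp, Jup, Krt20 and Vil1, which were at background too, held none, and neither did Tjp1. Cldn7 and Ocln each held them before 1 of 2 listed starts. The CArG box, the motif bound by serum response factor, was searched as CCWWWWWWGG, with W for A or T and no mismatch allowed. This strict form stood in the window of Myl9, in 1 of 3 contractile genes with a window, and in that of Vil1, against 1.62% of all genes. The Acta2 window held CCCTATATGG and CCTTGTTTGG, each 1 base off that form, and neither was counted. No window was matched for Cdh1, Cdh2, Cdh11, Cdx1, Esrp1, Esrp2, Fn1, Grhl2, Krt19, Ovol1, Pkp1, Pkp3, Snai2, St14, Tagln and Zeb1. These matches describe letters in a window, and binding was not measured.

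**Figure D3:**
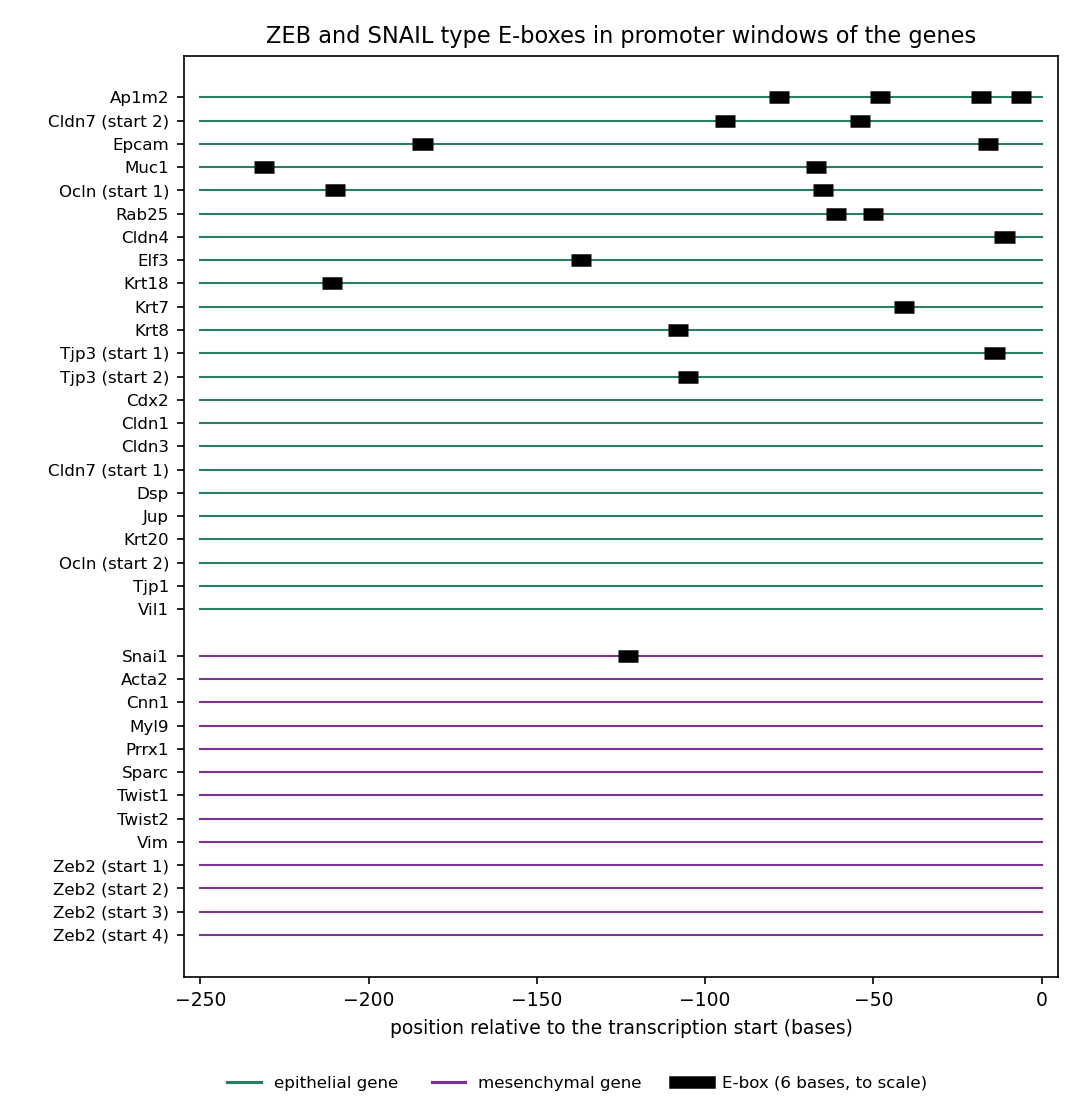
Position of each E-box (black, 6 bases, to scale) in the 250 bases before the transcription starts of 30 genes, with a line per listed start. The epithelial windows hold E-boxes in 12 of 20 genes, up to 4 in Ap1m2, and the mesenchymal windows hold 1, in Snai1.

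Above the negative controls on all 4 arrays were 2 of 3 mesenchymal cytoskeleton and adhesion genes, 2 of 2 matrix genes, 4 of 6 measured transcription factors and 0 of 4 contractile genes. Vim, which encodes the intermediate filament vimentin, stood at 17.43 for MOCK, 16.53 for WT, 17.28 for clone 1 and 17.07 for clone 2, and at most 4 of the 5222 negative control features on an array were as bright. As deposited, both clones lay between the controls. Cdh2, which encodes N-cadherin, stood at 11.95, 10.39, 11.37 and 11.54, again with the clones between the controls. Cdh11, a cadherin of mesenchymal and bone-forming cells, stood at 6.36, 6.16, 6.93 and 6.75, below the 95th percentile everywhere. Each clone exceeded each control by a narrow margin.

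Both matrix genes were bright. Fn1, which encodes fibronectin, stood at 14.81 for MOCK, 14.39 for WT, 15.34 for clone 1 and 16.10 for clone 2. Sparc, a secreted collagen-binding glycoprotein, stood at 15.45, 14.85, 15.66 and 15.79. For each, both clones lay above both controls as deposited. After quantile normalization the groups overlapped for both genes, with Fn1 at 14.51 for MOCK, 15.23 for WT, 15.07 for clone 1 and 15.90 for clone 2.

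The transcription factors divided by family member. Snai2, which encodes SLUG, stood at 15.92 for MOCK, 14.32 for WT, 15.76 for clone 1 and 16.12 for clone 2, while its relative Snai1 stood at 6.94, 6.67, 7.01 and 8.28, under the 95th percentile on all 4 arrays. Snai1 was highest in clone 2. The E-box repressor gene Zeb1 stood at 10.91, 9.71, 10.78 and 11.32, with WT lowest. Twist2 stood at 11.55 for MOCK, 11.07 for WT, 11.95 for clone 1 and 13.01 for clone 2, both clones above both controls. Twist1, the other gene of that pair, lay at the threshold, with 9.58 in MOCK, 8.82 in WT and 8.88 in clone 1 above it and 8.81 in clone 2 just under it. Prrx1, a homeobox factor of limb and connective tissue mesenchyme, gave 11.85 for MOCK, 11.70 for WT, 12.62 for clone 1 and 12.65 for clone 2, a tight pair in each group as deposited. After quantile normalization the Prrx1 controls were 0.49 apart, with WT the higher, which exceeds the difference between the groups of 0.40.

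The contractile genes were not above the negative controls on any array. Acta2, which encodes smooth muscle actin, stood at 4.31 for MOCK, 3.43 for WT, 3.33 for clone 1 and 5.80 for clone 2. Tagln, which encodes the actin-binding protein transgelin, Cnn1, which encodes calponin, and Myl9, a myosin light chain gene, ran from 3.72 to 5.81. Clone 2 had the highest signal of the 4 arrays for Acta2, Tagln and Myl9, and MOCK for Cnn1.

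The negative control features have a long upper tail, and their 99th percentile ran from 12.3 in WT to 12.7 in clone 1. Above that stricter level on all 4 arrays stood 4 mesenchymal genes, Vim, Fn1, Snai2 and Sparc, and 0 epithelial genes. Against the highest of 23 background features graded by GC content, which ran from 6.58 in WT to 7.84 in clone 2, Tjp1 and 9 mesenchymal genes were above on all 4 arrays, Twist1 being the addition.

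None of the 45 genes was called between knockout and control, a count of 0 at a limma adjusted p under 0.05, where 0.0405% of all probe sets were called. After quantile normalization the count was also 0, against 0.0045% of all. At an unadjusted p under 0.05 limma found 4 of the 45, against 8.75% of all probe sets. They were Fn1, Twist2 and Prrx1, higher in the knockout, and Esrp2, lower at background signal. After quantile normalization it found 2, Esrp2 and Twist1, against 8.91% of all. With 2 arrays against 2, an exact permutation test of a single gene cannot go below p = 0.333, so these p-values rest on the spread that limma shares across probe sets.

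Fn1 had a mean of 14.60 ± 0.30 in the controls and 15.72 ± 0.53 in the knockout (SD, n = 2 each), 2.17-fold higher (SE 0.41 log2 units, limma adjusted p = 0.476). Its difference of 1.12 log2 units became 0.62 after quantile normalization, and ran from 0.74 to 1.49 with an array left out. Twist2 had means of 11.31 ± 0.34 and 12.48 ± 0.75 (SD, n = 2 each), 2.25-fold higher (SE 0.45, limma adjusted p = 0.491). Its difference was 1.17 log2 units as deposited and 0.73 after quantile normalization. The difference of Twist2 was 1.70 without clone 1 and 0.65 without clone 2. Prrx1 had means of 11.77 ± 0.11 and 12.64 ± 0.02 (SD, n = 2 each), a difference of 0.87 log2 units (SE 0.37, limma adjusted p = 0.545), or 0.40 after quantile normalization. The groups of Twist2 and Prrx1 did not overlap on either scale.

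For Snai2 and Zeb1 the spread between the controls exceeded the difference between the groups. Snai2 differed by 0.82 log2 units (SE 0.51, limma adjusted p = 0.697), while MOCK exceeded WT by 1.60. Zeb1 differed by 0.74 (SE 0.47, adjusted p = 0.705), with MOCK 1.20 above WT. Without WT the difference was 0.02 for Snai2 and 0.14 for Zeb1, and without MOCK it was 1.62 and 1.34. After quantile normalization their differences were 0.35 and 0.36. Sparc differed by 0.58 (SE 0.39, adjusted p = 0.719), which became 0.08.

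No direction can be given for the remaining 4 genes above the negative controls. Vim differed by 0.19 log2 units as deposited and by -0.0017 after quantile normalization (limma adjusted p = 0.932 and 0.999). Cdh2 differed by 0.28 and -0.11, and Tjp1 by 0.03 and -0.39, so both changed sign with the scaling. Twist1 differed by -0.35 as deposited (SE 0.40, limma adjusted p = 0.842) and by -0.73 after quantile normalization (adjusted p = 0.560), where it stood at 9.57 for MOCK, 9.21 for WT, 8.79 for clone 1 and 8.54 for clone 2. Without MOCK its difference was 0.03.

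The median difference between knockout and control was 0.04 log2 units over the 30 epithelial genes and 0.58 over the 15 mesenchymal genes, beside 0.18 over all probe sets. After quantile normalization these medians were -0.04, 0.36 and 0.01. Among the epithelial genes 17 were higher and 13 lower in the knockout, or 14 and 16 after quantile normalization. Among the mesenchymal genes 13 were higher and 2 lower, or 11 and 4. Because the epithelial genes lie at background and most mesenchymal genes do not, these medians compare unlike parts of the signal range. Over the 5473 probe sets above the negative controls on all 4 arrays the median was 0.39 as deposited and -0.03 after quantile normalization. Over the 9 mesenchymal genes above the negative controls on at least 1 array it was 0.74 and 0.35, without a test. In the same 9 genes MOCK minus WT had medians of 0.76 and 0.04.

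Both clones lay above both controls for 6 epithelial and 6 mesenchymal genes, where 27.8% of all probe sets did, and below them for 5 and 1, where 11.7% did. After quantile normalization the counts above were 6 and 4, against 20.6%, and those below 6 and 2, against 19.8%. The mesenchymal genes above in both settings were Cdh11, Snai1, Twist2 and Prrx1. The 6 epithelial genes above, Epcam, Krt7, Esrp1, Cdx2, Pkp1 and Elf3, were below the 75th percentile of the negative controls on all arrays.

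**Figure D4:**
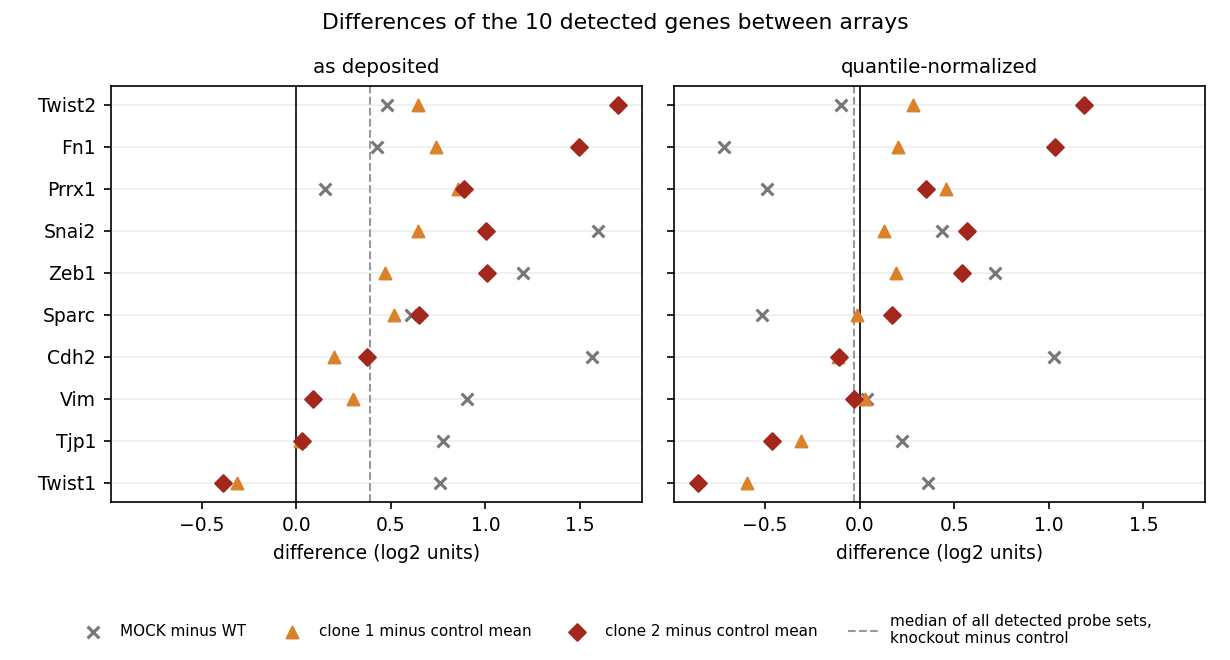
Differences in log2 units (horizontal axis) of the 10 genes above the negative controls on at least 1 array, as deposited (left) and quantile-normalized (right), for MOCK minus WT and for each clone minus the mean of the controls. The dashed line is the median knockout minus control over 5473 probe sets above the negative controls on all 4 arrays, and in clone 2 Twist2 and Fn1 have the largest differences from the controls on both scales. MOCK minus WT reaches 1.60 in Snai2 and 1.56 in Cdh2 as deposited.

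Single arrays were compared without a test, counting genes at least 1 log2 unit apart and above the negative controls on at least 1 array compared. Clone 1 differed from the mean of the controls in 0 of the 45 genes, against 3.42% of all probe sets, and in 0 after quantile normalization, against 2.12%. Clone 2 differed in 4, against 6.97%, all mesenchymal and all higher. Tjp1 was the only epithelial gene above the negative controls, so nearly all genes that could be counted were mesenchymal. Over the 5473 probe sets above the negative controls on all 4 arrays, clone 2 minus control had a median of 0.44 as deposited. After quantile normalization that median was -0.05. The 4 genes were Twist2, higher by 1.70 log2 units, Fn1 by 1.49, Zeb1 by 1.01 and Snai2 by 1.00. After quantile normalization 2 of them remained, Twist2 by 1.19 and Fn1 by 1.03, against 4.42%. The comparisons of both clones share the same controls, and in clone 1 Twist2 differed by 0.65 and Fn1 by 0.74, or by 0.28 and 0.20 after quantile normalization.

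Between the clones, 1 gene was at least 1 log2 unit apart, Twist2, with clone 2 1.06 above clone 1, against 4.96% of all probe sets. After quantile normalization the gap was 0.91 and the count 0, against 4.65%. Prrx1, Tjp1 and Cdh2 were close in the clones as deposited, with clone 2 minus clone 1 at 0.03, 0.01 and 0.17 log2 units.

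The controls differed from each other in 3 mesenchymal genes, with MOCK above WT by 1.60 in Snai2, 1.56 in Cdh2 and 1.20 in Zeb1, against 6.18% of all probe sets. After quantile normalization Cdh2 alone was counted, at 1.03, against 0.77%. As deposited, MOCK exceeded WT in 15 of the 15 mesenchymal genes, with a median of 0.60 log2 units, beside 0.67 over the 5473 probe sets above the negative controls on all 4 arrays. After quantile normalization it did so in 10 of 15, with a median of 0.02 beside 0.04.

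Other genes of both programmes, from lists drawn up by function, were measured in the same way. Of 49 further epithelial genes, 5 were above the negative controls on all 4 arrays, 0 were called by limma as deposited, and 28 were higher and 21 lower in the knockout, which turned to 22 higher and 27 lower after quantile normalization. The 5 were Klf4, a transcription factor of gut epithelium and of stem cells, the catenin genes Ctnna1 and Ctnnd1, Pkp4 and Cldn12. Klf4 stood at 11.61 for MOCK, 11.19 for WT, 12.26 for clone 1 and 12.83 for clone 2 (limma adjusted p = 0.442). The catenins serve N-cadherin as well as E-cadherin. Of 33 further mesenchymal genes, 14 were above on all 4 arrays, 0 were called, and 22 were higher and 11 lower, or 18 and 15 after quantile normalization. Their median difference was 0.43 log2 units as deposited and 0.04 after quantile normalization. Tpm2, which encodes a tropomyosin, had the largest difference among those above as deposited, with 9.52 for MOCK, 9.47 for WT, 11.42 for clone 1 and 10.33 for clone 2 (limma adjusted p = 0.383). S100a4, a calcium-binding protein gene of motile cells, had the largest difference below 0 among those above, with 15.33 for MOCK, 15.20 for WT, 14.73 for clone 1 and 14.75 for clone 2 (limma adjusted p = 0.726). Both clones lay under both controls on either scale, and after quantile normalization its difference of -0.99 was larger in size than that of Tpm2, 0.95. S100a4 was named after its values were seen. Postn, which encodes the matrix protein periostin, stood at 6.41, 4.91, 4.79 and 9.09, above the negative controls in clone 2 alone. The differences of Fstl1, Ccn1, Cald1 and Foxc1 were 0.69, 0.68, 0.63 and 0.62 log2 units as deposited, and at most 0.26 after quantile normalization.

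Markers of other cell types were read beside these values. Of 9 blood cell markers and 7 endothelial markers 0 were above the negative controls on any array. The defining genes Ptprc and Pecam1 had signals of 4.77 or less. Cd14, the brightest of the blood cell markers, stood at 7.80 for MOCK, 7.92 for WT, 7.45 for clone 1 and 7.08 for clone 2. It lay above the 75th percentile of the negative controls on all 4 arrays. Of 7 smooth muscle markers, 1 was above, Smtn, at 9.49 to 9.84. Of 7 fibroblast markers, 3 were above on all 4 arrays, Dcn, Col3a1 and Pdgfrb, while Col1a1 and Thy1 were not on any. Dcn, which encodes the matrix proteoglycan decorin, stood at 12.95 for MOCK, 13.61 for WT, 8.94 for clone 1 and 11.18 for clone 2 (limma adjusted p = 0.121), opposite in direction to Fn1 and Twist2. Col3a1, a fibrillar collagen gene, was also lower in both clones, with 11.80, 11.79, 11.19 and 10.75 on the same arrays. Pdgfrb, which is in the list of further mesenchymal genes too, stood at 11.47, 11.42, 11.70 and 12.02. The median difference of the 7 fibroblast markers was 0.42 as deposited and -0.02 after quantile normalization, and 4 of them were below the negative controls on all arrays. The part of other cells in the mesenchymal signals was not tested.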

How the data were processed

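RNA of 4 MC38 lines was hybridised to 1 Clariom S mouse array each. Per the labels and the submitters' processing notes, the authors processed the arrays in the Transcriptome Analysis Console, and the sources used here give neither its version nor its normalization. The authors deposited log2 signals, a scale read from the range of the values. Of 28846 features, the 6640 control features were left out of the tests and 22206 probe sets were kept with no filter.

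Groups came from the titles. Knockout was compared with control by limma 3.58.1 under R 4.3.3 (lmFit, eBayes, no covariate), with Benjamini-Hochberg adjustment over all probe sets and a threshold of 0.05. Quantile normalization used all features. The fit was tested on simulated data with changes far larger than any knockout minus control difference of the members. That test therefore does not show whether differences of their size would be called. P-values measure the spread between the arrays within each group, and those arrays come from different lines. Differences between lines and technical variation are therefore mixed in that spread and cannot be separated. It is not the spread of replicates of the same line, and no label says whether cultures were separate. Precision is limited by the number of arrays.

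The members, lists and rules were chosen with earlier results of these data known. Genes above the 95th percentile of the negative controls on at least 1 array are given on all 4. Differences and tests were planned for genes at least 1 log2 unit apart in some comparison and were added, after values were seen, for the others above that level. The planned differences and adjusted p-values were left out for genes under that level on all arrays. These genes were Acta2, Cldn1, Cldn4, Dsp, Esrp2, Jup, Ocln and Snai1. Of 6 further lists, genes above that level with the largest differences are named, up to 6 per list. Background signals are also given for members where they define a role.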

Additional observations from a re-analysis of the deposited data

How the results depend on the processing

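The count of 0 members called by limma held under all alternatives run on the 4 arrays. These were quantile normalization, centring on the median, both filters on dim signal, eBayes with trend and robust, and averaging of probe sets. Each measured member has 1 probe set, so averaging could not change its values. The filters kept only 14 and 10 of the 45 members, so they do not cover the rest. Each array was also left out in turn. A fit without an array tests a lone array of its group, which is assumed to vary like the other group, and says nothing about stability. The number of probe sets called over the whole table was 9 as deposited, 1 after quantile normalization, 340 with trend and robust, 196 and 114 with the filters, and 0 to 529 with an array left out. At the 99th percentile of the negative controls the genes above on all arrays numbered 0 epithelial and 4 mesenchymal, against 1 and 8 at the 95th; with an array left out they were 1 and 8 to 9. The epithelial median difference ran from -0.11 to 0.11 log2 units and the mesenchymal one from 0.28 to 0.94 with an array left out. Clone 2 differed from the controls in 2 genes, not 4, after quantile normalization or centring, clone 2 from clone 1 in 0, not 1, under either, and MOCK from WT in 1, not 3, after quantile normalization. Signs turned for Tjp1 (-0.39 quantile-normalized, -0.11 centred, -0.36 to 0.41 with an array left out), Vim (-0.0017, and -0.26 to 0.64), Cdh2 (-0.11, and -0.50 to 1.07) and Twist1 (0.02551 without MOCK, -0.73 at the other end), in 8 of 100 values. The filters, eBayes with trend and robust, and averaging leave a member's difference unchanged, so the values from those settings could not turn. The cause of the turned signs was not tested. Signals near the negative controls limit what can be said of 35 of the 45 genes. No paired analysis was possible because the control titles carry no replicate numbers.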

Other observations

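Clone 2 had the highest signal of the 4 arrays in 19 of the 33 further mesenchymal genes and the lowest in 3, or in 13 and 3 after quantile normalization. Over all probe sets it was highest in 39.2% and lowest in 16.3% as deposited, and highest in 28.9% and lowest in 28.4% after quantile normalization. Among the 7 smooth muscle markers clone 2 was highest in 3 and lowest in 2 on either scale. Myh11, Des, Actg2, Lmod1 and Myocd are in both lists, so these counts are not separate observations. Postn had the widest gap of those 33 genes, with 9.09 in clone 2 against 4.79 to 6.41 on the other arrays. Acta2 stood at 5.80 against 3.33 to 4.31, Actg2, an enteric actin gene, at 5.89 against 3.11 to 3.59 and Des, which encodes desmin, at 4.70 against 2.85 to 3.19. Clone 2 was instead lowest for the smooth muscle genes Myh11, at 4.28, and Synm, at 3.11, and for Lox, which encodes lysyl oxidase, at 4.17. Apart from Postn in clone 2 these signals were under the 95th percentile of the negative controls, clone 2 is 1 array, and the genes named were chosen after their values were seen, so the differences have no test.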
